A study of Homo sapiens with 4 samples.

Results

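The genes of fatty acid synthesis and desaturation were followed through gene-level RNA sequencing counts from 4 hepatoma cell cultures. Members were chosen by symbol as FASN, ACACA, ACACB, ACLY, SCD, ELOVL6, FADS1, FADS2, ACSS2 and ME1, and all 10 were found among the 16370 genes that the count files held. The hepatic cancer cell group (HCC) held the human hepatoma lines Hep3B and Huh7, and the hepatic cancer stem cell group (HCSC) held Hep3B-C and Huh7-C, the stem-like cells cultured from each of them. Every line gave 1 library, no treatment was named for any of them, and none was repeated, so that the groups have 2 libraries each and a ratio within a line has no replicate check. Hep3B-C and Huh7-C are cultures of a single parent line apiece, and neither the selection that gave them nor the passage at collection was stated in the labels.

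Fatty acid synthesis turns cytosolic citrate into fat. ATP citrate lyase cleaves citrate to acetyl-CoA, acetyl-CoA carboxylase makes malonyl-CoA from it, and fatty acid synthase builds palmitate with reducing power from NADPH. Palmitate is then lengthened by elongases and given double bonds by desaturases. In liver this pathway follows insulin and carbohydrate supply through the transcription factors SREBP-1c and ChREBP, and it is often high in hepatocellular carcinoma.

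The genes differ in where they are placed and in how safely reads can be assigned to them. In the GENCODE annotation of GRCh38, which served for position only since the authors had aligned to an older assembly, FASN lies at chr17:82078333-82098332 on the minus strand, ACACA at chr17:37084988-37406818 on the minus strand and ACLY at chr17:41866908-41930542 on the minus strand. SCD lies at chr10:100347124-100364834 on the plus strand, ACSS2 at chr20:34872146-34927962 on the plus strand and ACACB at chr12:109116595-109268226 on the plus strand. ELOVL6 lies at chr4:110045846-110199199 and ME1 at chr6:83210389-83431071, both on the minus strand. FADS1 (chr11:61799625-61829318, minus strand) and FADS2 (chr11:61792980-61867354, plus strand) sit head to head with overlapping gene models, and the annotated starts used here are 599 or 800 bases apart. FADS2 also overlaps FEN1 on its own strand. Whether counting used the strand was not given in the sources used here, so reads from the overlap of FADS1 and FADS2 cannot be told apart. SCD has a processed pseudogene, SCDP1, and FADS2 a related one, FADS2P1, and the handling of reads that match more than 1 place was not given either.

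The stretch just upstream of the start was read from RefSeq (GRCh38.p14) for 9 of the 10 genes. FASN had no entry there, so that its promoter was not searched. The 9 genes gave 15 windows, 1 for each start listed, each holding the 250 bases before the start. The motifs searched on both strands were the sterol response core TCACNCCAC, the E-box CACGTG, the CCAAT box and the GC box GGGCGG. The CCAAT box, the motif of the factor NF-Y that often acts beside SREBP, was found in 7 of the 15 windows and in 5 of 9 genes, namely ACACA, ACACB, ACLY, ACSS2 and SCD. It was found in 32.0% of the 35097 windows of all genes. GGGCGG was found in 12 of the 15 windows and in 9 of 9 genes, against 42.6% of all windows. TCACNCCAC and CACGTG were in none of the 15 windows, and in 0.883% and 6.34% of all windows. The windows shown are 3, picked because their genes were up-regulated in Hep3B-C and hold the CCAAT box, written in capitals on either strand (CCAAT or its reverse complement ATTGG). Each reads 5′ to 3′ along the gene. The SCD stretch at chr10:100346983-100347123 (plus strand) ends where its annotated exon begins, ACLY is at chr17:41919023-41919272 (minus strand) and ACSS2 at chr20:34874739-34874988 (plus strand).
SCD: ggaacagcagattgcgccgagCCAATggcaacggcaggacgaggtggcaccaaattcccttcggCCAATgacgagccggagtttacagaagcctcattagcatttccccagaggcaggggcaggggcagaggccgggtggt
ACLY: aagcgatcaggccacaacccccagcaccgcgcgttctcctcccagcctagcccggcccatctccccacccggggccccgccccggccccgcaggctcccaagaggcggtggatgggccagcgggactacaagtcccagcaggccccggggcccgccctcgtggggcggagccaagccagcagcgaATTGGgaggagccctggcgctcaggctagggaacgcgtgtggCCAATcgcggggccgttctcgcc
ACSS2: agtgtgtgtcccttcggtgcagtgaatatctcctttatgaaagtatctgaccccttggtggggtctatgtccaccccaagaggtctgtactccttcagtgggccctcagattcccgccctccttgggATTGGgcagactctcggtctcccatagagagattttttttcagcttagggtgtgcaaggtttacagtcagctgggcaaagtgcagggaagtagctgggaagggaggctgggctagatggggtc
The SCD stretch has 2 forward CCAAT boxes, ACLY has 1 in each orientation, and ACSS2 has 1 in the reverse orientation. The other ACSS2 window held none, nor did the windows of FADS2, which was also up-regulated in Hep3B-C. The ACLY windows overlap and hold the same 2 boxes, which are therefore counted in both. A match is a match of letters, and no binding was measured.

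The total count was 2896418 for the Hep3B library and 4641927 for that of Hep3B-C, and 4537510 for Huh7 and 4333808 for Huh7-C, and levels are given as CPM (counts-per-million of that total). In Hep3B-C against Hep3B the log2 ratio rose with the GC content of the transcript (Spearman's rho 0.631 across 11338 genes) and fell with its length (rho −0.434), whereas in Huh7-C against Huh7 the values were −0.059 and 0.315 across 11060 genes. These are descriptions across genes, which share their libraries. The median log2 ratio of all genes with at least 20 counts was −0.55 in the Hep3B pair and 0.06 in the Huh7 pair. Scaling by the trimmed mean of M values (TMM), which assumes that most genes do not change, moved these medians to 0.04 and 0.02. All 10 hepatocyte markers examined (ALB, APOB, SERPINA1, HNF4A and others) were detected in every library, with summed levels of 61988 and 72138 CPM (Hep3B, then Hep3B-C) and of 51405 and 27248 CPM (Huh7, then Huh7-C). Markers of other cells gave far fewer counts. In that order the summed CPM was 14.5, 10.8, 45.2 and 15.7 for 6 fibroblast genes, 3.11, 2.80, 3.97 and 21.5 for 3 endothelial genes, 313, 451, 186 and 191 for 3 blood genes, and 2.07, 4.31, 10.6 and 12.5 for 4 adipocyte genes. Within the fibroblast sum of the Huh7 pair COL3A1 went from 0 to 13.4 CPM and PDGFRB from 41.0 to 0.461 CPM, both called. PECAM1 gave all the endothelial counts in Huh7-C, and CD68 and LYZ gave nearly all the blood counts. The part of these levels in the results below was not tested.

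The genes of this pathway took a larger share of the RNA in both stem-like cultures than in their parents. Together they made up 0.265% of all counts in Hep3B and 1.59% in Hep3B-C, and 0.372% in Huh7 and 0.736% in Huh7-C. FASN alone gave 24.7% and 65.0% of the members' counts in the Hep3B pair, and 12.6% and 20.4% in the Huh7 pair. Without FASN the other 9 genes still went from 0.199% to 0.556% of the library and from 0.325% to 0.586%. A higher level may mean more cells with the RNA or more RNA per cell, which cannot be told apart in bulk samples.

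**Figure D1:**
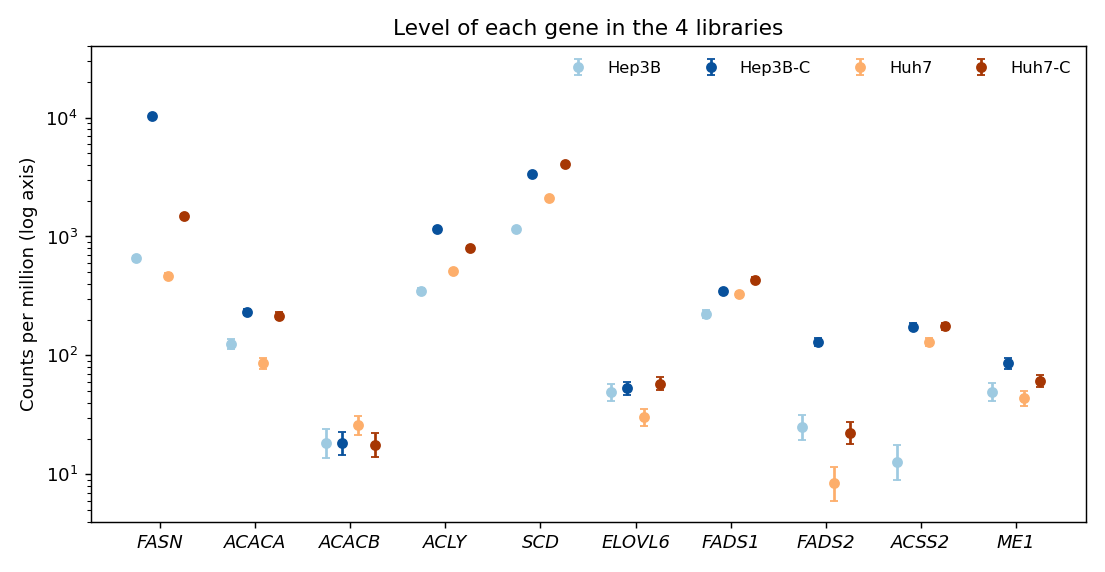
CPM (log axis) of the 10 genes in the 4 libraries, 1 library per cell line, with exact 95% Poisson intervals that cover counting error only. FASN in Hep3B-C (10345 CPM) stands above every other value, and FASN also has the widest range across the 4 libraries, from 468 to 10345 CPM.

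Within each pair a gene was called where the Audic-Claverie test on the 2 counts passed a false discovery rate of 0.01 over all genes of the pair and the log2 ratio was at least 1 in size. The test compares 2 libraries, not 2 conditions, and its error is counting error. Of the 10 genes, 5 were up-regulated in Hep3B-C (FASN, ACSS2, FADS2, ACLY and SCD) and 0 were down-regulated, where 13.2% of all 15480 genes were called up and 30.4% down. In Huh7-C, 3 of the 10 were up-regulated (FASN, FADS2 and ACACA) and 0 were down-regulated, where 4.19% of all 14807 genes were called up and 4.15% down. FASN and FADS2 passed in both pairs. The median log2 ratio of the 10 genes was 1.22 in the Hep3B pair and 0.79 in the Huh7 pair, and 10 and 9 of them, respectively, lay above the median of all genes.

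**Figure D2:**
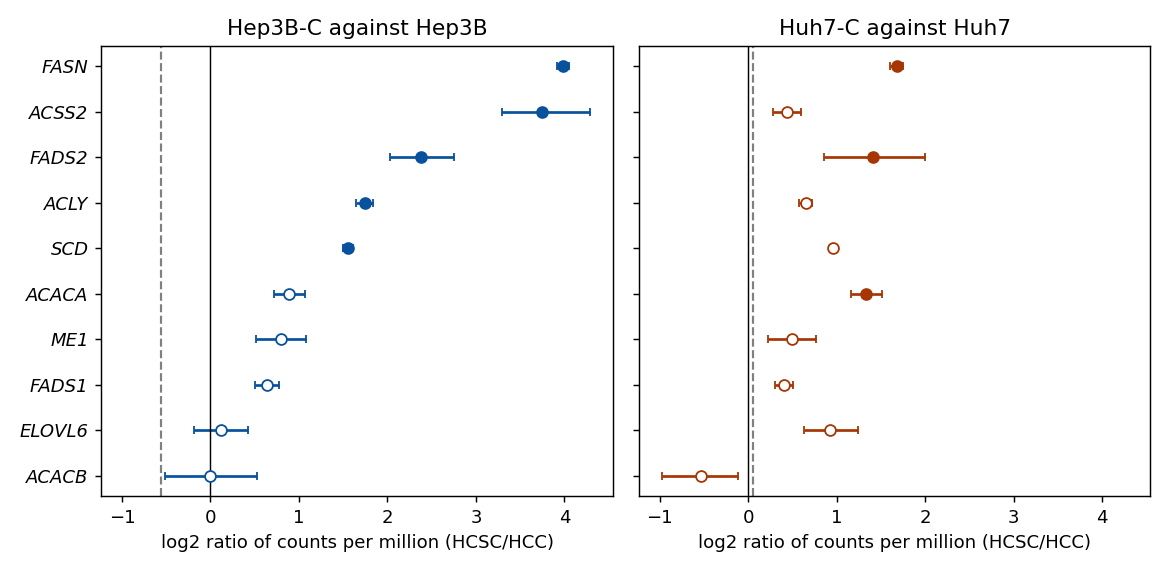
The log2 ratio of CPM (HCSC/HCC) of the 10 genes in each pair, with 95% counting intervals. Filled points passed the test and the fold threshold, the dashed line is the median of all genes with at least 20 counts (−0.55 and 0.06), and 9 of 10 points lie to the right of 0 in each pair, the other being ACACB at 0.00 and −0.53.

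FASN, the fatty acid synthase that assembles palmitate, had the highest ratio of the 10 genes in both pairs on total-count scaling, though its interval overlapped that of ACSS2 in the Hep3B pair and that of FADS2 in the Huh7 pair. From Hep3B to Hep3B-C it went from 1894 to 48019 counts, or 654 to 10345 CPM, and from Huh7 to Huh7-C it went from 2124 to 6497 counts, or 468 to 1499 CPM. Both stem-like libraries were higher than both parental ones. The ratio was 15.8-fold in the Hep3B pair (95% interval 15.1 to 16.6, log2 3.98 with SE 0.034) and 3.20-fold in the Huh7 pair (3.05 to 3.37, log2 1.68 with SE 0.036). By count it stood at rank 5 of the Hep3B-C library and at rank 152 of the Hep3B library. In the Huh7 pair it went from rank 303 to rank 57. With the GC trend removed in the Hep3B pair ACSS2 (log2 2.91) came before FASN (2.31), and with the length trend removed in the Huh7 pair FADS2 (1.38) came before FASN (1.26).

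The carboxylases that make malonyl-CoA did not move together. ACACA, the cytosolic enzyme that feeds synthesis, had 362 and 1074 counts in Hep3B and Hep3B-C (125 and 231 CPM) and 388 and 937 in Huh7 and Huh7-C (85.5 and 216 CPM). Its ratio of 1.85-fold in the Hep3B pair (1.64 to 2.09, log2 0.89) stayed under the fold threshold, and its ratio of 2.53-fold in the Huh7 pair (2.24 to 2.85, log2 1.34) passed it. ACACB, the isoenzyme at the mitochondrial surface that restrains fatty acid import, had 53 and 85 counts in the Hep3B pair (18.3 CPM in each library) and 117 and 77 in the Huh7 pair (25.8 and 17.8 CPM). The ratio in the Hep3B pair was 0.997-fold (0.702 to 1.44), an interval that leaves room for a fall or a rise of that size, and in the Huh7 pair 0.691-fold (0.510 to 0.927, adjusted p = 0.033 by the Audic-Claverie exact test), which missed both thresholds. Per kilobase of transcript, ACACA had 5.92 times the level of ACACB in Hep3B (4.43 to 8.06) and 11.0 times in Hep3B-C (8.78 to 13.8), and 2.88 times in Huh7 (2.33 to 3.57) and 10.6 times in Huh7-C (8.36 to 13.5). The intervals of the parents did not overlap with those of their stem-like cultures.

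Acetyl-CoA for the pathway comes from citrate or from acetate. ACLY, which cleaves citrate, had 1005 and 5390 counts in Hep3B and Hep3B-C (347 and 1161 CPM) and 2317 and 3476 in Huh7 and Huh7-C (511 and 802 CPM). It rose 3.35-fold in the Hep3B pair (3.13 to 3.58), and its ratio in the Huh7 pair of 1.57-fold (1.49 to 1.66, log2 0.65) did not reach the fold threshold. ACSS2, which activates acetate in the cytosol and nucleus, had 37 and 808 counts in Hep3B and Hep3B-C (12.8 and 174 CPM) and 588 and 762 in Huh7 and Huh7-C (130 and 176 CPM). Hep3B was the library that stood apart, since the other three lay within 130 to 176 CPM. The rise was 13.5-fold in the Hep3B pair (9.80 to 19.5, log2 3.75 with SE 0.24), and the ratio in the Huh7 pair was 1.36-fold (1.22 to 1.51, log2 0.44), under the threshold. Per kilobase, ACLY exceeded ACSS2 18.8-fold in Hep3B (13.6 to 26.9) and 4.62-fold in Hep3B-C (4.29 to 4.99), against 2.73-fold in Huh7 (2.49 to 3.0) and 3.16-fold in Huh7-C (2.92 to 3.43). ACSS2 shares its locus with GGT7 on the opposite strand, which had 47 and 86 counts in the Hep3B pair and 61 and 59 in the Huh7 pair. In Hep3B this neighbour therefore had more counts than ACSS2 itself.

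ME1, the malic enzyme that supplies NADPH in the cytosol, passed neither fold threshold. Its counts were 143 and 398 in the Hep3B pair (49.4 and 85.7 CPM) and 197 and 265 in the Huh7 pair (43.4 and 61.1 CPM). The ratios were 1.73-fold (1.43 to 2.12) and 1.41-fold (1.17 to 1.70), higher in the stem-like library of each pair by more than the counting error. The adjusted p was 1.6e-08 and 0.0014 by the Audic-Claverie exact test.

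SCD, the stearoyl-CoA desaturase that makes oleate and palmitoleate, was the most abundant of the 10 genes in 3 of the 4 libraries. It had 3318 and 15593 counts in Hep3B and Hep3B-C (1146 and 3359 CPM) and 9489 and 17674 in Huh7 and Huh7-C (2091 and 4078 CPM). It rose 2.93-fold in the Hep3B pair (2.82 to 3.05), and its 1.95-fold ratio in the Huh7 pair (1.90 to 2.00, log2 0.96) fell just short of the threshold. ELOVL6, which lengthens palmitate to stearate, had 142 and 247 counts in the Hep3B pair (49.0 and 53.2 CPM) and 137 and 250 in the Huh7 pair (30.2 and 57.7 CPM). Its ratio was 1.08-fold (0.879 to 1.34) in the first and 1.91-fold (1.55 to 2.37, log2 0.93) in the second. It missed the fold threshold in both, and in the Hep3B pair its interval held 1.

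FADS2 and FADS1 are the delta-6 and delta-5 desaturases of polyunsaturated fatty acid synthesis and neighbours on chromosome 11. FADS2 had 72 and 602 counts in Hep3B and Hep3B-C (24.9 and 130 CPM) and 38 and 97 in Huh7 and Huh7-C (8.37 and 22.4 CPM). It rose 5.19-fold in the Hep3B pair (4.08 to 6.76) and 2.65-fold in the Huh7 pair (1.82 to 4.0, adjusted p = 7.5e-07 by the Audic-Claverie exact test). Hep3B and Huh7-C did not differ beyond counting error, so that parents and stem-like cultures overlapped across lines. FADS1 had 643 and 1604 counts (222 and 346 CPM) and 1477 and 1872 counts (326 and 432 CPM), with ratios of 1.56-fold (1.42 to 1.71) and 1.33-fold (1.24 to 1.42), under the threshold in both pairs. Per kilobase, FADS1 exceeded FADS2 6.37-fold in Hep3B (4.99 to 8.25) and 1.90-fold in Hep3B-C (1.73 to 2.09), and 27.7-fold in Huh7 (20.1 to 39.3) and 13.8-fold in Huh7-C (11.2 to 17.1). The ratio was lower in the stem-like culture of each line. In the Hep3B pair the log2 ratios (HCSC/HCC) of FADS2 and FADS1 were 2.37 and 0.64. They lay closer together at 1.13 and 0.49 with the GC trend removed, and at 1.28 and 0.81 with GC and length trends removed. FEN1, which lies within the FADS2 gene model on the same strand, had 239 and 428 counts in the Hep3B pair and 376 and 413 in the Huh7 pair.

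The order of the genes within a library was compared on RPKM, the CPM divided by the length of the transcript in kilobases. In Hep3B, SCD (210 RPKM) came before ACLY (79.7) and FASN (77.3), which did not differ beyond counting error. In Hep3B-C, FASN (1223 RPKM) came before SCD (614) and ACLY (267). Huh7 kept FASN in the fourth place at 55.3 RPKM, after SCD (382), ACLY (117) and FADS1 (73.7). In Huh7-C, SCD (746) was followed by ACLY (184) and FASN (177), whose intervals overlapped. The lowest places were held by ACACB and FADS2, at 2.79 and 2.66 RPKM in Huh7 and not separable there, and at 1.92 and 7.11 RPKM in Huh7-C. SCD thus exceeded FASN 2.71-fold in Hep3B (2.56 to 2.87), 6.91-fold in Huh7 (6.59 to 7.25) and 4.21-fold in Huh7-C (4.09 to 4.33), and in Hep3B-C the ratio was 0.502 (0.493 to 0.512). FASN exceeded ACACA 6.60-fold in Hep3B (5.89 to 7.40), 6.90-fold in Huh7 (6.19 to 7.71) and 8.74-fold in Huh7-C (8.16 to 9.37), but 56.4-fold in Hep3B-C (53.1 to 59.9). These RPKM values were not adjusted for the trends with GC content and length. In the Hep3B pair the log2 ratios of FASN, SCD and ACACA were 3.98, 1.55 and 0.89. With the GC trend removed they were 2.31, 1.79 and 0.93, and with both trends removed 3.26, 2.27 and 1.85. The part of these trends in the order was not tested.

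The ratios of the pairs were then set against each other, with a test of the difference of log2 ratios on counting error (false discovery rate 0.01 over 13917 genes and a difference of at least 1). Of the 10 genes, 3 had a larger ratio in the Hep3B pair and 0 in the Huh7 pair, where 13.4% and 26.5% of all genes did. The difference was 3.31 (SE 0.25) for ACSS2, 2.30 (SE 0.049) for FASN and 1.09 (SE 0.063) for ACLY. With the GC trend removed the difference was 2.44 for ACSS2, 0.64 for FASN and 0.59 for ACLY, so that FASN and ACLY lost their calls, and ME1 (1.39) gained one. The count of 10 was then 2, where 5.74% of all genes were called, against 6 with TMM (22.6% of all genes), 7 with DESeq2 size factors (24.2%), 7 with the length trend removed (10.5%) and 7 with both trends removed (4.02%). FADS2 differed by 0.97 (SE 0.33, adjusted p = 0.0066 by the normal test on the Poisson error) and SCD by 0.59 (SE 0.033), both under the size threshold. ELOVL6 and ACACA pointed the other way, at −0.82 (SE 0.22) and −0.45 (SE 0.12), also under it. The sign for ACACA depended on the scaling, since it was 0.19 with TMM.

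The lines were also set against each other directly, within HCC and within HCSC. Between the parents, ACSS2 was 10.1-fold lower in Hep3B than in Huh7 (7.27 to 14.6), FADS2 was 2.97-fold higher (1.98 to 4.52) and FASN 1.40-fold higher (1.31 to 1.49). The counting interval excluded 1 for 9 of the 10 genes, all but ME1, with 4 higher and 5 lower in Hep3B, and for 79.3% of all genes with at least 20 counts. Between Hep3B-C and Huh7-C it excluded 1 for 6 of the 10 and for 71.5% of all genes. Between Hep3B-C and Huh7-C, the ratio was 1.07 for ACACA, 0.922 for ELOVL6, 1.03 for ACACB and 0.990 for ACSS2, all within counting error of 1. FASN was 6.90-fold higher in Hep3B-C (6.72 to 7.08) and FADS2 5.79-fold higher (4.67 to 7.26), whereas SCD and FADS1 were lower, at 0.824 and 0.800 of the Huh7-C level. All these comparisons between lines used total-count scaling only. They were not repeated with TMM or with GC and length trends removed, so their dependence on scaling and on these trends was not tested.

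A joint fit of the 4 libraries with edgeR, with the parental line as a block, asked which genes moved alike in both lines. At an adjusted p of 0.05 it called 0 of the 10 genes, and of 11691 genes tested it called 4 up (0.0342%) and 5 down (0.0428%), with 372 genes at an unadjusted p under 0.05. FASN came nearest of the 10, at rank 44, with a log2 ratio of 3.0 (adjusted p = 0.43 by edgeR's quasi-likelihood test). FADS2 had a log2 ratio of 2.08 and ACSS2 of 2.23, and the adjusted p of the other 9 genes was 1.0 in that edgeR fit. Without Hep3B-C and without the block, the joint ratio was 1.52 for FASN and 0.57 for FADS2, and without Hep3B that of ACSS2 was 0.50. With all 4 libraries the joint log2 ratio was 1.43 for SCD, 1.37 for ACLY, 1.28 for ACACA and −0.10 for ACACB. DESeq2 with the same block called FASN, with a log2 ratio of 3.06 and an adjusted p of 0.049. The biological coefficient of variation in the edgeR fit was 0.514, on 1 residual degree of freedom.

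The ratios in the Hep3B pair depended on scaling and on trends with GC content and length. TMM raised the log2 ratio of every gene in that pair by the same amount, since it changes only the library sizes. It put FASN at 4.58, ACSS2 at 4.35, FADS2 at 2.97, ACLY at 2.34 and SCD at 2.15. ACACA (1.48), ME1 (1.39) and FADS1 (1.23) then passed as well, which made 8 of 10 up where 21.6% of all genes were. The split over all genes went from 2043 up and 4708 down to 3348 up and 2799 down. FASN is the most GC-rich of the 10 at 65.2% GC, a value higher than in 96.0% of genes, and ME1 the least at 39.5%. With the GC trend removed, FASN fell from 3.98 to 2.31, FADS2 from 2.37 to 1.13 and ACLY from 1.74 to 1.27, whereas ME1 went from 0.79 to 1.81. With GC and length trends removed together, FASN was at 3.26, ACSS2 at 3.0, SCD at 2.27, ACACA at 1.85, ME1 at 1.73, ACLY at 1.61 and FADS2 at 1.28. Then 7 of 10 genes were called up in the Hep3B pair, where 3.88% of all genes were.

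**Figure D3:**
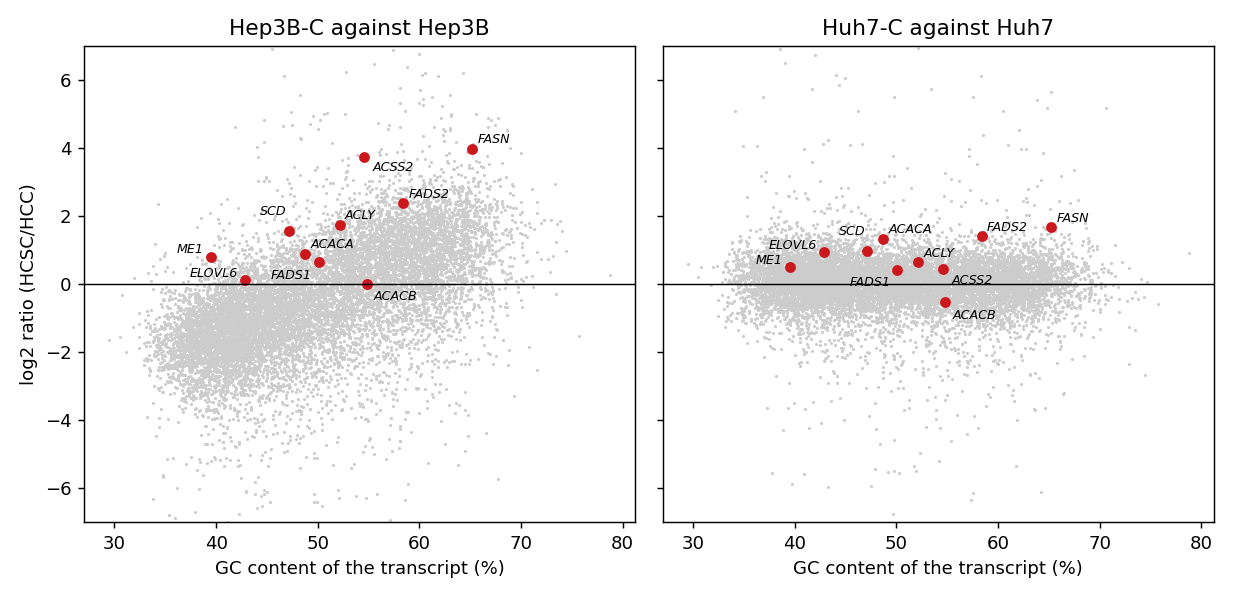
The log2 ratio (HCSC/HCC) of all genes with at least 20 counts in the pair (grey) and of the 10 genes (red) against the GC content of the transcript in percent, with genes beyond ±7 not drawn. In the Hep3B pair the grey cloud climbs with GC content (rho 0.631), with FASN (3.98) and ACSS2 (3.75) above it, and in the Huh7 pair it is flat (rho −0.059).

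A biological coefficient of variation of 0.4 was assumed because no line was repeated. The joint edgeR fit estimated a larger value, 0.514, and the pair calls were not repeated at that value. Under the assumed 0.4, FASN and ACSS2 stayed called in the Hep3B pair (adjusted p = 0.0029 and 0.0061 by edgeR's exact test), where 0.401% of all genes were called up. None of the 10 was called in the Huh7 pair, where 13 genes were called up and 12 down. In the Huh7 pair the GC and length trends moved FASN only from 1.68 to 1.17, but ACACA went from 1.34 to 0.79 and lost its call. ACACB went from −0.53 to −1.01 and was then called down.

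**Figure D4:**
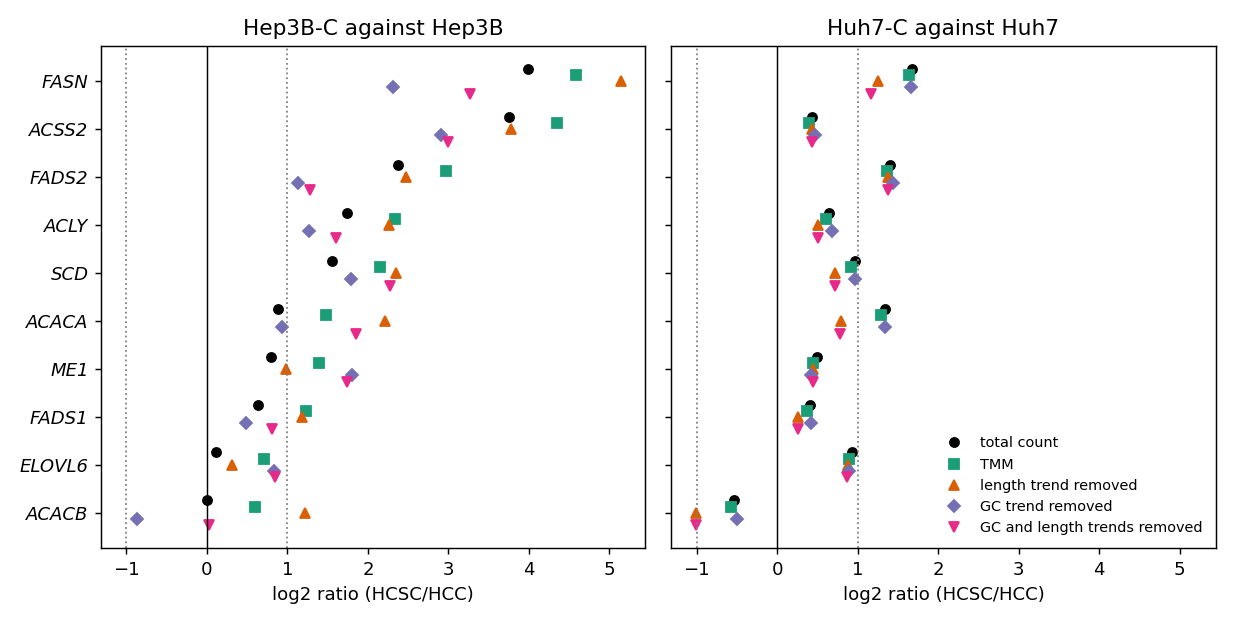
The log2 ratio (HCSC/HCC) of the 10 genes in each pair under total-count scaling, TMM, and removal of the length trend, the GC trend or both, with dotted lines at the fold threshold of ±1. FASN lies between 2.31 and 5.14 in the Hep3B pair and between 1.17 and 1.68 in the Huh7 pair.

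Of 32 regulators in the Hep3B pair, 6 were up-regulated, 9 were down-regulated and 17 passed neither way (median log2 0.03). Of 31 in the Huh7 pair, 1 was up, 2 were down and 28 neither (median 0.03). These shares lie near those of all genes, which were 13.2% up and 30.4% down in the Hep3B pair and 4.19% and 4.15% in the Huh7 pair. SREBF2, which encodes the sterol-responsive SREBP-2, rose in both, from 622 to 2112 counts (log2 1.08) and from 575 to 1103 (log2 1.01, or 0.96 with TMM and then under the threshold). SREBF1, which encodes SREBP-1, had 235 and 660 counts (log2 0.81) and 179 and 249 (log2 0.54), under the threshold on total-count scaling. In the Hep3B pair the SREBF1 value depended on the setting. It was 1.40 under TMM scaling, over the fold threshold, but −0.38 once trends in GC content and length were both taken out. In the Huh7 pair these settings gave 0.50 and 0.33. The SREBP escort SCAP rose in Hep3B-C (172 to 820 counts, log2 1.57) and had 620 and 694 counts in the Huh7 pair.

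The paralogous retention factors of SREBP in the endoplasmic reticulum went opposite ways in Hep3B-C. INSIG1, itself an SREBP target, rose from 47 to 515 counts (log2 2.76), and INSIG2 fell from 116 to 38 (log2 −2.28). In the Huh7 pair INSIG1 had 216 and 331 counts (log2 0.68), and INSIG2 fell from 77 to 32 (log2 −1.19). MLXIPL, which encodes ChREBP, had 128 and 225 counts (log2 0.13) and 61 and 110 (log2 0.91), with no call on total-count scaling. The MLXIPL value in the Hep3B pair became 0.73 under TMM scaling, and −1.22 once trends in GC content and length were both taken out. In the Huh7 pair these settings gave 0.87 and 0.81. MID1IP1, whose product promotes the assembly of acetyl-CoA carboxylase into filaments, rose in Hep3B-C from 75 to 283 counts (log2 1.23) and had 123 and 75 counts in the Huh7 pair (log2 −0.64). Its ratio in the Hep3B pair was −0.14 with the GC and length trends removed. Its paralogue THRSP had 1 count in Hep3B and 0 in Hep3B-C, which allows up to 0.646 CPM there. Among AMP kinase subunits, which restrain the carboxylases by phosphorylation, PRKAB2 fell in both pairs (275 to 111 counts, log2 −1.99, and 189 to 75, log2 −1.26) and PRKAA2 in Hep3B-C (215 to 65, log2 −2.40), with 112 and 103 counts in the Huh7 pair. With TMM in the Hep3B pair these falls were −1.39 for PRKAB2, −1.80 for PRKAA2 and −1.68 for INSIG2. With the GC and length trends removed they were −0.74, −0.56 and −1.43, and SREBF2 was at 0.58 and SCAP at 0.55, both under the threshold. TRIB3, a stress-induced pseudokinase that binds the carboxylase, rose in Hep3B-C from 107 to 2895 counts (log2 4.07) and had 194 and 179 counts in the Huh7 pair.

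Among genes that supply acetyl-CoA and NADPH, those called in Hep3B-C were all up. Of 20 measured in the Hep3B pair 8 were up, 0 down and 12 neither (median log2 0.86), and of 21 in the Huh7 pair 1 was up, 2 down and 18 neither (median 0.07). Of all genes, 13.2% were up and 30.4% down in the Hep3B pair, and 4.19% and 4.15% in the Huh7 pair. SLC25A1, which exports citrate from mitochondria to ACLY, rose from 221 to 3516 counts (log2 3.31) and had 523 and 928 in the Huh7 pair (log2 0.89).

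Of the pentose phosphate route, PGD makes NADPH and TKT, a transketolase, rearranges the sugar phosphates. PGD rose in Hep3B-C from 280 to 3392 counts (log2 2.92) and had 1308 and 2460 in the Huh7 pair (log2 0.98), and TKT rose in both, from 312 to 2957 (log2 2.56) and from 1627 to 3468 (log2 1.16). PC, the pyruvate carboxylase that refills citrate, was called in opposite directions, from 224 to 1448 counts (log2 2.01) and from 996 to 469 (log2 −1.02). With the GC and length trends removed in the Hep3B pair, the values were 2.05 for PGD, 1.39 for TKT and 1.32 for SLC25A1, and 0.97 for PC, which lost its call.

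**Figure D5:**
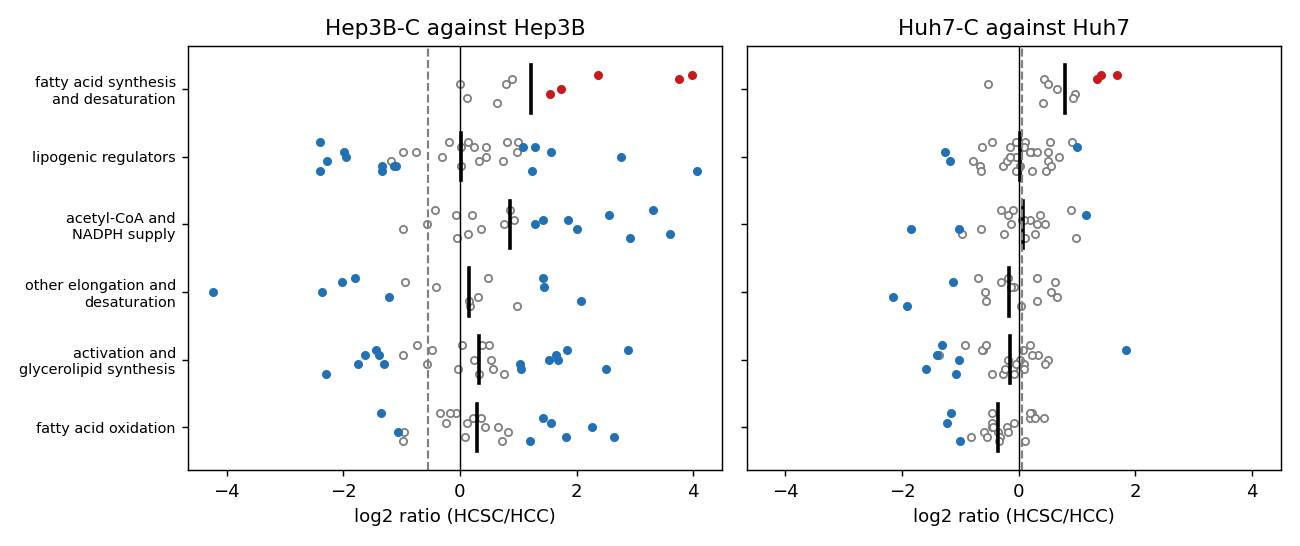
The log2 ratio (HCSC/HCC) of the 10 genes (red when called) and of the 5 related gene lists (blue when called, open when not), for genes with at least 20 counts in the pair, with the median of each list as a black bar and that of all genes as a dashed line. The 10 genes have the highest median of the 6 groups in both pairs, at 1.22 and 0.79, and genes that supply acetyl-CoA and NADPH follow in the Hep3B pair at 0.86.

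Of 19 other genes of elongation and desaturation, 3 were up and 5 down in the Hep3B pair (median log2 0.15), shares near those of all genes (13.2% and 30.4%). In the Huh7 pair 0 were up and 3 down (median −0.16), where 4.19% of all genes were up and 4.15% down. ELOVL2, which elongates polyunsaturated fatty acids, fell in both, from 579 to 228 counts (log2 −2.02) and from 521 to 227 (log2 −1.13), as did ELOVL7, from 72 to 22 (log2 −2.37) and from 53 to 11 (log2 −2.15). With TMM the values in the Hep3B pair were −1.43 for ELOVL2 and −1.77 for ELOVL7, and with GC and length trends removed −0.94, under the threshold, and −1.23. SCD5, the second human stearoyl-CoA desaturase, fell in Hep3B-C from 229 to 19 counts (log2 −4.24), the library in which SCD rose, and had 29 and 44 counts in the Huh7 pair. TECR, the reductase of the elongation cycle, rose in Hep3B-C from 335 to 2258 counts (log2 2.07), a value of 0.14 with GC and length trends removed, and had 1789 and 1749 in the Huh7 pair. CYB5A, the cytochrome that hands electrons to the desaturases, had 139 and 248 counts in the Hep3B pair and fell from 597 to 151 in the Huh7 pair (log2 −1.91).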

How the data were processed

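RNA of 4 hepatoma cultures was sequenced once each. Per the labels and the study's methods, libraries followed the standard Illumina protocol on a Genome Analyzer II, adapters and low-quality reads were removed, and the authors aligned reads with NextGENe to NCBI Build 36.1 and deposited raw gene counts with gene lengths. NextGENe's version, the annotation, strand use and multiple hits were not given in the sources used here. Total counts per library ran from 2896418 to 4641927, so that 3 counts, taken as the limit a count of 0 allows, equal 0.646 to 1.04 CPM. Intervals are 95% counting intervals and cover counting error only. The spread between independent cultures was not measured within a line.

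From the counts, CPM and log2 ratios (0.5 added to each count) were computed in Python 3.11.15 (pandas 2.3.3, scipy 1.17.1, statsmodels 0.14.6, numpy 2.4.6), and the Audic-Claverie test was adjusted by Benjamini-Hochberg over all genes of a pair (call: false discovery rate 0.01 and an absolute log2 ratio of 1). The difference between pairs was tested on the Poisson error. The joint fit used edgeR 4.0.16 in R 4.3.3 (quasi-likelihood, TMM, low-count filter, parental line as block). The labels pair HCSC with HCC by cell line, and across 16370 genes the departures of both Hep3B libraries from the mean of HCC and of HCSC correlated at 0.522. Alternatives were DESeq2 1.42.0 and its size factors, TMM in the pairs, 5 added to each count, a minimum of 20 counts, an exact binomial test, an assumed biological coefficient of variation of 0.4 (edgeR's exact test), no block, leaving out each library, and removal of GC and length trends (lowess, fraction 0.3, each trend centred on its median). GC content and positions came from GENCODE 29, with GC available for 99.2% and 99.3% of genes. The tests were checked on simulated counts. For the joint fit the simulated spread was set below the biological coefficient of variation of 0.514 estimated here, so that check does not cover the noise of these data.

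The 10 genes and the related lists were chosen with earlier results of these data known. The genes named besides the 10 were 9 partners (SREBF1, SREBF2, SCAP, INSIG1, MLXIPL, MID1IP1, THRSP, SLC25A1 and 1 that is not reported here) and, from each of the 5 related lists, genes called alike in both pairs and the 3 largest log2 ratios per pair among genes with at least 50 counts in 1 library of the pair.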

Additional observations from a re-analysis of the deposited data

Results flagged for a closer look

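For 3 of the 10 genes the stem-like against parental ratio differed between the lines by the test of the difference itself. The log2 ratio in the Hep3B pair exceeded that in the Huh7 pair by 3.31 for ACSS2, by 2.30 for FASN and by 1.09 for ACLY. For ACSS2 the parental Hep3B library was the low one at 12.8 CPM, against 130 CPM in Huh7, and the stem-like libraries were at 174 and 176 CPM. For FASN the parents were at 654 and 468 CPM, and the stem-like libraries at 10345 and 1499 CPM. For ACLY the parents were at 347 and 511 CPM and the stem-like libraries at 1161 and 802 CPM. The log2 ratio rose with GC content in the Hep3B pair and not in the Huh7 pair, and its trend with length also differed between the pairs. With the GC trend removed the difference was 2.44 for ACSS2, 0.64 for FASN and 0.59 for ACLY, so that FASN and ACLY fell under the threshold. With GC and length trends removed together it was 2.56 for ACSS2, 2.09 for FASN and 1.09 for ACLY, all over the threshold. The part of these trends in the difference was not tested.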

How the results depend on the processing

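In the Hep3B pair 5 of the 10 genes were called up, where 2043 of all 15480 genes were. The number was 8 with TMM (3348 of all genes), with DESeq2 size factors (3549) and with the length trend removed (1655). DESeq2 size factors came out equal for both libraries of each pair, so that counts were compared without scaling. The number was 6 with the GC trend removed (741 of all genes) and 7 with both trends removed (601). With the assumed coefficient of variation of 0.4 it was 2, FASN and ACSS2 (62 of all genes). Their median log2 ratio went from 1.22 to 1.82 with TMM, 1.90 with DESeq2 size factors, 2.24 with the length trend removed and 1.67 with both trends removed. In Huh7-C the 3 calls became 0 with the assumed coefficient of variation, and 1 gene, ACACB, was called down with the length trend, or both trends, removed. The genes with the larger ratio in the Hep3B pair went from 3 (13.4% of all genes) to 6 with TMM (22.6%). They were 7 with DESeq2 size factors (24.2% of all genes), the length trend removed (10.5%) or both trends removed (4.02%). With the GC trend removed they were 2, ACSS2 and ME1 (5.74% of all genes). The ACACB ratio in the Hep3B pair (0.00) became 0.59 with TMM, 0.68 with DESeq2 size factors, 1.22 with the length trend removed, 0.027 with both removed and −0.87 with the GC trend removed. The difference between pairs for ACACA (−0.45) became 0.19 with TMM, 0.30 with DESeq2 size factors, 1.42 with the length trend removed and 1.07 with both removed. With the GC trend removed it became −0.38 for ACACB and −0.31 for FADS2, and for FADS2 −0.090 with both removed. The cause was not tested.

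Over both lines DESeq2 called 1 gene, FASN, where edgeR called 0. Without the replicate block edgeR called 0 of the 10, and leaving out each library in turn without the block also gave 0. Over all genes the calls went from 4 up and 5 down with the block to 0 and 0 without it. As each library was left out, the joint ratio ran from 1.52 (without Hep3B-C) to 4.49 (without Huh7-C) for FASN, from 0.50 (without Hep3B) to 4.10 (without Huh7) for ACSS2, from 0.57 (without Hep3B-C) to 3.32 (without Hep3B) for FADS2 and from −0.45 (without Hep3B) to 0.31 (without Huh7) for ACACB. Of the single-gene values under alternatives, 270 kept direction and call, and 12 changed sign. Among those that kept their sign, 28 gained a call and 10 lost it. Some values that changed sign also gained a call. ACACB, for example, was called up in the Hep3B pair with the length trend removed (1.22). At this depth a gene at 50 counts carries a wide interval, as for ACACB, ACSS2 in Hep3B and FADS2 in Huh7, and with 1 library per line the spread between cultures is not known.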

Other observations

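Genes of fatty acid activation and of glycerolipid synthesis, which take up the products of the pathway, were examined as a list. Of 33 in the Hep3B pair, 8 were up and 7 down (median log2 0.33), where 13.2% of all genes were up and 30.4% down. Of 31 in the Huh7 pair 1 was up and 5 down (median −0.15), where 4.19% of all genes were up and 4.15% down. ACSL4, which activates arachidonate and other polyunsaturated fatty acids, fell in both, from 3370 to 2061 counts (log2 −1.39) and from 1336 to 484 (log2 −1.40). With the GC and length trends removed its value in the Hep3B pair was 0.03, and with TMM −0.79. PLIN2, the lipid droplet coat protein of liver, fell from 4951 to 2354 counts (log2 −1.75) and from 877 to 279 (log2 −1.58), and LPIN2, a phosphatidate phosphatase, from 325 to 106 (log2 −2.29) and from 526 to 201 (log2 −1.32). The first acyltransferase GPAM and the last, DGAT1, rose in Hep3B-C, from 38 to 351 counts (log2 2.51) and from 44 to 526 (log2 2.88). In the Huh7 pair GPAM had 79 and 80 counts and DGAT1 86 and 103.

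Genes of fatty acid oxidation had medians of 0.30 in the Hep3B pair (6 up and 3 down of 24) and −0.35 in the Huh7 pair (0 up and 3 down of 25). Over all genes the medians were −0.55 and 0.06. Of all genes, 13.2% were called up and 30.4% down in the Hep3B pair, and 4.19% and 4.15% in the Huh7 pair. CPT1A, the gate of mitochondrial import that malonyl-CoA inhibits, fell in Huh7-C from 2320 to 986 counts (log2 −1.17), as did the carnitine carrier SLC25A20, from 139 to 56 (log2 −1.24). In the Hep3B pair CPT1A had 497 and 632 counts (log2 −0.33, or 0.26 with TMM). The thiolase ACAA1 rose in Hep3B-C from 99 to 366 counts (log2 1.2) and fell in Huh7-C from 723 to 343 (log2 −1.01), but with GC and length trends removed the Hep3B pair gave −0.29. ACADS, a short-chain acyl-CoA dehydrogenase, rose in Hep3B-C from 15 to 154 counts (log2 2.64), and so did ECI1, from 44 to 343 (log2 2.27), and ETFB, from 151 to 858 (log2 1.82). With GC and length trends removed these were 0.83, 0.49 and −0.12, so that none kept its call and ETFB changed sign.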
